A study of Mus musculus with 24 samples.

Results

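The Zfp genes are the mouse genes named by number as zinc finger proteins. Their promoters were taken as the 2000 bp upstream of each transcription start site (TSS) of every protein-coding gene of GENCODE vM21 on chromosomes 1 to 19 whose symbol is Zfp followed by a number alone, which gave 358 members of 20807 protein-coding genes. Binding was read from 6 peak lists, 1 each for the transcriptional regulators (TRs) ARID1B, FOXP1 and TCF7L2 in wild-type cortex at embryonic days E15.5 and E18.5. Each list stands for 2 ChIP and 2 input libraries of its TR and stage (24 in all) and was called by the authors on merged replicates. Peaks of single replicates were not analysed here, so no value below carries a replicate error or a test. The mice were kept on a CD1 background, no allele or agent was applied, and the labels say TCF4 where the antibody list of the study says TCF7L2. A member had a promoter peak in a list when at least 1 base of a peak overlapped any of its promoters. Its value was the fold enrichment of the highest such peak, the reads at the summit over the background as MACS2 gives it, with 1 added to both.

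Most Zfp proteins carry arrays of C2H2 zinc fingers, each a small domain that grips a zinc ion and reads a few bases of DNA. Many also carry a KRAB box, which recruits the corepressor TRIM28 and through it the H3K9 methyltransferase SETDB1, and KRAB zinc finger proteins are best known for silencing transposons and for protecting imprints. The KRAB genes arose by tandem duplication, lie in clusters and include many near copies of each other. ARID1B is a subunit of the BAF chromatin remodeler, FOXP1 is a forkhead factor and TCF7L2 is a TCF/LEF factor of the Wnt pathway. Translation of the GENCODE coding sequences found 3 or more C2H2 fingers in 325 of the 358 members, with a median of 11.0 and a maximum of 36. A KRAB match together with 3 or more fingers was found in 209 members, 116 had such an array without a KRAB match, and 33 had fewer fingers. The last group is mixed and includes Zfp993, with a KRAB match and 2 fingers. It also holds genes that share only the name, such as Zfp36, which encodes the mRNA decay factor tristetraprolin. Of all members, 12 had no finger match.

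The following 120 bases upstream of a TSS show the range of these promoters, from bound to unbound. Zfp335 (RefSeq TSS, chr2:164911751-164911870, minus strand, GRCm38.p6) had the highest minimum fold enrichment over the 6 lists of all members, and its 14 CpG dinucleotides are in capitals. Zfp42 (RefSeq TSS, chr8:43307010-43307129, minus strand) had no promoter peak in any list and holds 5 CpGs, also in capitals. Zfp987 (GENCODE TSS, chr4:146097225-146097344, plus strand) had no promoter peak and holds 3 CpGs. The corresponding 120 bases of Zfp534 in the same cluster (chr4:147702554-147702673, minus strand) differ from those of Zfp987 at 0 positions, so that a 50-base read from here could not be placed. Zfp933 (RefSeq TSS, chr4:147848419-147848538, minus strand) was the only member of the same cluster with a promoter peak, and the capitals mark the ACTACAAT core recognized by ZFP143 and by Ronin. Its 120 bases hold 5 CpGs, left in lower case, as many as those of the unbound Zfp42. Over the whole promoter, the CpG ratio (observed over expected) was 0.309 for Zfp335 and 0.230 for Zfp933, both below the 0.372 of Zfp42.
Zfp335: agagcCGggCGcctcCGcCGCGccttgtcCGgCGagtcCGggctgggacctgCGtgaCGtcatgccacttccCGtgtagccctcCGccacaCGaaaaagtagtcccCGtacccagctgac
Zfp42: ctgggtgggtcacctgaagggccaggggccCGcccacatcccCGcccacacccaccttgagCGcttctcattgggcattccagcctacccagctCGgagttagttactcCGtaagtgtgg
Zfp987: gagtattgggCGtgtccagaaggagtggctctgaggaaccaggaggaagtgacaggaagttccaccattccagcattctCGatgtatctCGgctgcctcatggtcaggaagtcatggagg
Zfp933: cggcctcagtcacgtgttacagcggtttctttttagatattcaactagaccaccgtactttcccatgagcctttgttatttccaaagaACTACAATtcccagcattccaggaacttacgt

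The 6 lists held 24890 (FOXP1, E18.5) to 71442 (ARID1B, E15.5) peaks. The genome-wide background recovered from the authors' fold enrichments and p-values was 2.81 extended reads per position for FOXP1 at E18.5 and 6.13 to 8.63 for the other lists, so that FOXP1 at E18.5 rests on the least sequence and its lowest called fold enrichment was 3.21 against 2.33 to 2.66 elsewhere. The promoters of Emx1, Neurod6 and Tbr1, genes of cortical progenitors and neurons, had a peak in all 6 lists, and those of Alb, Ins2, Myh6, Myod1 and Krt5, genes of liver, pancreas, heart, muscle and skin, had none.

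Most Zfp promoters were bound, and by every TR. At E15.5, 274 of 358 members had an ARID1B peak (76.5%, 95% Wilson interval 71.9 to 80.6%, which covers counting error only, as do all intervals here), against 60.9% of all protein-coding genes. A FOXP1 peak was found at 289 members (80.7%, 76.3 to 84.5%), against 63.4% of all genes, and a TCF7L2 peak at 269 (75.1%, 70.4 to 79.3%), against 59.1%. At E18.5, ARID1B was at 263 members (73.5%, 68.7 to 77.8%), against 59.4% of all genes. FOXP1 and TCF7L2 were at 273 members each (76.3%, 71.6 to 80.4%), against 56.7% and 63.0%. In each list the members' share lay 13.3 to 19.6 percentage points above the share of all genes. Among higher peaks the difference narrowed in 4 of the 6 lists by more than the margin of the member share's Wilson interval. That margin is not an error of the change, which was not tested. With −log10 p of at least 15 it was 9.50 points for TCF7L2 at E15.5 and 12.7 for FOXP1 at E18.5, while it was 11.3 for TCF7L2 at E18.5 and 19.4 for FOXP1 at E15.5. ARID1B peaks were at 53.4% of members and 45.3% of all genes at E15.5 and at 44.1% of members and 42.2% of all genes at E18.5. Among the 20000 peaks of lowest p-value per list, ARID1B reached 35.8% of members and 35.5% of all genes at the earlier stage and 33.2% of members and 35.5% of all genes at the later, while those of FOXP1 and TCF7L2 reached 67.6 to 74.9% of members and 54.2 to 55.2% of all genes.

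**Figure D1:**
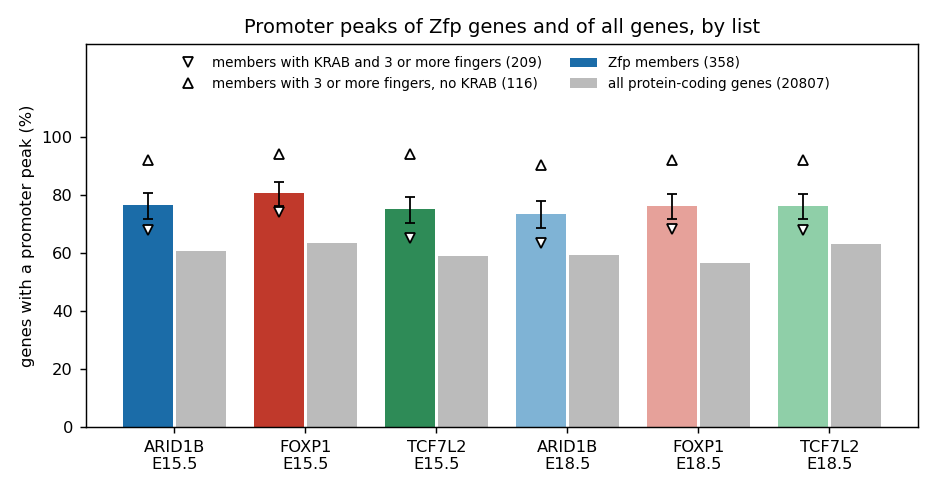
Bars give the percentage of genes with a promoter peak in each of the 6 lists, colored for the 358 Zfp members (error bars, 95% Wilson intervals) and gray for all 20807 protein-coding genes; triangles split the members by the presence of a KRAB match. Members lie above all genes in every list, and members with fingers but no KRAB match (90.5 to 94.0%) lie above those with a KRAB match (63.6 to 74.2%), without matching for promoter uniqueness.

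The 3 TRs shared their Zfp promoters. All 3 were present at 264 members at E15.5 and at 254 at E18.5, where 57.4 and 54.9% of all genes had all 3. A peak in all 6 lists was found at 253 members (70.7%, against 53.9% of all genes), and no peak in any list at 66 (18.4%, against 34.3%). Between these extremes lay 39 members (10.9%, against 11.8% of all genes). Within a stage, a single TR was at 3.35% of members at E15.5 and 3.63% at E18.5, against 3.28 and 4.40% of all genes. At E15.5, FOXP1 alone marked 11 members (3.07%, all genes 2.18%), TCF7L2 alone 1 (0.279%, all genes 0.336%) and ARID1B alone 0 (all genes 0.759%). At E18.5, FOXP1 alone marked 7 (1.96%, all genes 0.264%), TCF7L2 alone 5 (1.40%, all genes 3.27%) and ARID1B alone 1 (0.279%, all genes 0.865%). All 274 members with ARID1B at E15.5 also had FOXP1. So had nearly all of the 12667 such genes among all genes (11949 with all 3 TRs, 528 with ARID1B and FOXP1 only). The summits of a pair of TRs at the same member and stage lay a median of 74.0 to 104 bp apart.

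The peaks sat on the TSS. Between 95.4 and 97.1% of the members' summits lay within 500 bp of the nearest TSS, against 90.3 to 94.5% for all genes, and the median summit position was between −5.00 and 4.00 bp. About as many summits lay at or downstream of the TSS (46.8 to 53.9%) as upstream of it, where all genes had 39.8 to 45.1% downstream. For this reason a rule that the summit itself lie in the upstream 2000 bp left 183 to 218 members, while 500 bp on either side of the TSS left 262 to 288. Under the summit rule the members' share lay 5.64 to 9.99 percentage points above that of all genes in 5 lists and 1.05 points above it for TCF7L2 at E18.5 (51.1 against 50.1%). A peak that also touched the promoter of another protein-coding gene accounted for 12.1 to 14.1% of bound members. The 33 members with another protein-coding TSS on the opposite strand within 1000 bp were bound in 28 or 29 cases per list (84.8 to 87.9%), against 91.2 to 94.6% of the 2638 such genes among all genes. The median fold enrichments of those bound were higher than for the rest in each list, for instance 14.8 against 10.00 for FOXP1 at E15.5.

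Peaks at Zfp promoters were slightly lower and narrower than at other genes. The median fold enrichment of bound members at E15.5 was 4.81 for ARID1B, 10.3 for FOXP1 and 5.98 for TCF7L2, where all bound genes had 5.26, 10.8 and 6.50. At E18.5 the medians were 5.19, 8.06 and 6.46, where all bound genes had 5.75, 8.80 and 6.68. The median peak width was 734 to 1090 bp for members and 799 to 1240 bp for all genes. Members therefore stood out by how many of them were bound and not by how high their peaks were. Fold enrichments of different lists carry different depths and antibodies, so values of different lists stand side by side here and their sizes are not a measure of more or less binding.

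**Figure D2:**
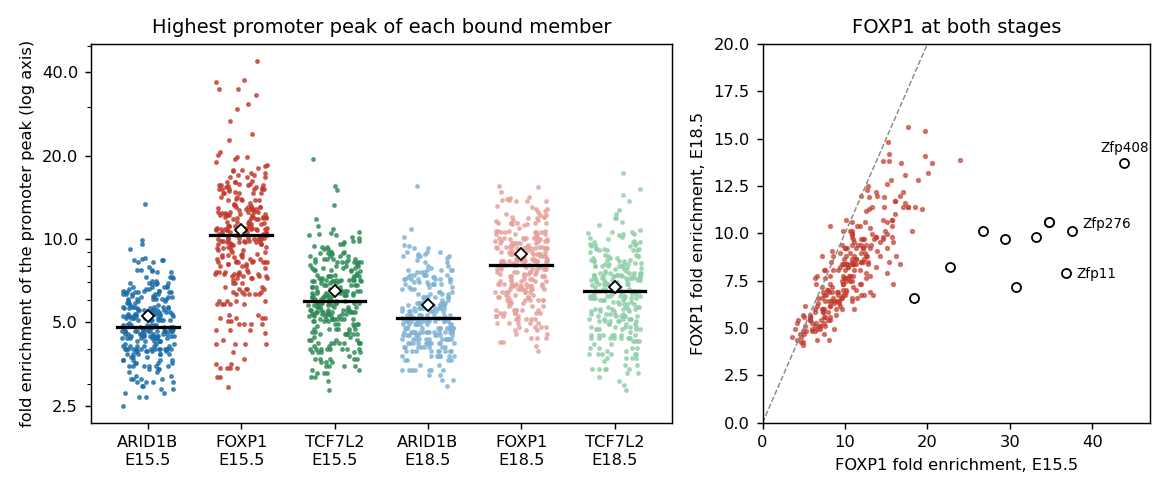
Left, each point is the highest promoter peak of 1 bound Zfp member, on a log axis of fold enrichment; black lines are medians of members and open diamonds medians of all bound genes. Right, FOXP1 fold enrichment at E15.5 against E18.5 for the 272 members bound at both stages, with the dashed line of equal values and open circles for the 11 members at least 2.5 times higher at E15.5, among them Zfp408, Zfp276 and Zfp11.

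The members with the highest minimum over the 6 lists were Zfp335, Zfp661, Zfp524, Zfp213 and Zfp219, whose lowest fold enrichments were 8.46 (Zfp219) to 9.61 (Zfp335). Zfp335 (ENSMUSG00000039834.17, chr2:164891882-164911757, minus strand), a cofactor needed for neural progenitor division whose human ortholog is mutated in microcephaly, had fold enrichments at E15.5 and E18.5 of 9.61 and 10.9 for ARID1B, 18.9 and 12.8 for FOXP1, and 11.1 and 11.9 for TCF7L2. Zfp661 (ENSMUSG00000034800.15, chr2:127574662-127587094, minus strand), a KRAB gene that shares its promoter region with Mrps5 on the other strand, had the highest ARID1B peak of all members at both stages, 13.4 and 15.6, while its TCF7L2 peaks were 9.84 and 9.30. At Zfp335 the ARID1B and FOXP1 summits lay apart at both stages, at 373 and 39 bp downstream of the TSS at E15.5 and at 335 and 31 bp at E18.5. Zfp703, whose product is a transcriptional corepressor of the NET family, led the TCF7L2 lists with 19.4 at E15.5 and 17.3 at E18.5, where its ARID1B values were 6.86 and 7.01. Zfp142, with the most fingers of all members (36), followed for TCF7L2 at E15.5 with 15.6 and had 14.4 at E18.5. In the FOXP1 list of E18.5, Zfp318 (15.6), Zfp341 (15.4) and Zfp513 (14.8) were highest.

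The FOXP1 list of E15.5 held a group of members with far higher peaks than its own median of 10.3. Zfp408 (ENSMUSG00000075040.9, chr2:91643669-91649791, minus strand) had 43.9 at E15.5 and 13.7 at E18.5, Zfp276 had 37.5 and 10.1, and Zfp11 had 36.8 and 7.91. Zfp408 also had one of the 4 highest TCF7L2 peaks of all members at each stage (13.7 at E18.5). In all, 11 members had a FOXP1 peak at least 2.5 times as high at E15.5 as at E18.5 (2.65 to 4.65 times). The other 261 members bound at both stages had ratios of 0.782 to 2.16 with a median of 1.30. Over all genes bound at both stages, 348 had a ratio of at least 2.5 and 11425 did not, so such ratios were not particular to members. The 11 members were Zfp11, Zfp770, Zfp276, Zfp579, Zfp668, Zfp646, Zfp408, Zfp560, Zfp114, Zfp580 and Zfp13, and Zfp668 and Zfp646 share 1 peak from opposite strands, which leaves 10 summits. The 6 letters CGGAAC, on either strand, lay within 50 bp of 4 of these 10 summits and of 20 of the 260 other summits (7.69%). Over all genes they lay within 50 bp of 44.1% of the 279 summits with such a ratio and of 6.06% of the rest. Both the ratio and these letters were chosen after the values had been seen, so the shares are a description. CGGAAC shares its first letters, CGGAA, with the ETS core CCGGAAGT. The 30 bases around the word nearest to the summit read as follows, with CGGAAC in capitals, at Zfp11 (chr5:129670135-129670164, minus strand), Zfp276 (chr8:123254144-123254173, plus strand), Zfp408 (chr2:91649975-91650004, plus strand) and Zfp13 (chr17:23586316-23586345, minus strand), all in GRCm38.
Zfp11: acccagatacccCGGAACggaagcctgcgg
Zfp276: acgcctccagacCGGAACgcggagcgcgga
Zfp408: catctggaaaagCGGAACccaactcactca
Zfp13: ggaccccaggacCGGAACcctcaaatctgg

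Most bound members were bound at both stages. ARID1B was at 262 members at both stages, at 12 at E15.5 only and at 1 at E18.5 only, where all genes had 12127, 540 and 242. FOXP1 was at 272 at both, 17 at E15.5 only and 1 at E18.5 only, where all genes had 11773, 1410 and 16. TCF7L2 was at 265 at both, 4 at E15.5 only and 8 at E18.5 only, where all genes had 12237, 66 and 862. The counts of a single stage depended on the height called. With −log10 p of at least 15, the members at E15.5 only numbered 46 for ARID1B and 70 for FOXP1, and with the 20000 peaks of lowest p-value per list ARID1B was at 19 at E18.5 only. The peaks found at 1 stage only were low, with medians for those of E15.5 of 3.13 for ARID1B, 3.67 for FOXP1 and 3.32 for TCF7L2. No member had all 3 TRs at one stage and none at the other. Where a member was bound at both stages, the E18.5 peak was the higher in 166 of 262 members for ARID1B (63.4%, all genes 70.6%), in 23 of 272 for FOXP1 (8.46%, all genes 9.39%) and in 182 of 265 for TCF7L2 (68.7%, all genes 66.7%). The direction for each TR was thus that of all genes. The order of members by height was kept, with a Spearman rho across members of 0.808, 0.819 and 0.922 for ARID1B, FOXP1 and TCF7L2, which is a correlation over genes and not over samples.

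FOXP1 at both stages and neither other TR was found at 3 members, namely Zfp273 with 4.94 at E15.5 and 5.71 at E18.5, Zfp819 with 4.68 and 4.24, and Zfp52 with 3.54 and 4.53. All 3 are KRAB genes of clusters, and no member had ARID1B alone or TCF7L2 alone at both stages. Among the 39 members with peaks in 1 to 5 lists, 36 had a FOXP1 peak at E15.5, 21 an ARID1B peak and 16 a TCF7L2 peak. Over all genes, 2459 were in 1 to 5 lists and 11219 in all 6, and at E15.5 13183 had FOXP1, 12667 ARID1B and 12303 TCF7L2. The order of the TRs among genes in 1 to 5 lists was thus the same. The medians of the 39 members, 4.68, 3.13 and 3.74, lay below the 10.3, 4.81 and 5.98 of all bound members. These members were picked for lacking a peak in at least 1 list, so low peaks go with that choice. Of these 39 members, 31 were KRAB genes with finger arrays.

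The share of a cluster's members bound in a list ran from 5.56 to 100%, against 73.5 to 80.7% for all members. Shares of small groups spread more widely by their size alone, so whether clusters differed more than TRs or stages was not tested. The 5.56% was that of the chromosome 4 cluster, whose promoters were 19.4% unique in the genome in the median. The next lowest share was 33.3%. With consecutive members no more than 500 kb apart and at least 5 members, 16 clusters held 169 members, and 189 members were dispersed. Over all clusters 70.4 to 79.9% of members were bound per list at E15.5 and 69.8 to 74.6% at E18.5, and of dispersed members 79.4 to 81.5% and 76.7 to 78.3%. No promoter peak in any list was found at 32 clustered and 34 dispersed members. These totals hide a split. Clusters of chromosome 7 (Zfp628 to Zfp580, Zfp787 to Zfp28, Zfp180 to Zfp526 and Zfp84 to Zfp146), of chromosome 6 (Zfp786 to Zfp775) and of chromosome 9 (Zfp560 to Zfp846) were bound at every member in every list.

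**Figure D3:**
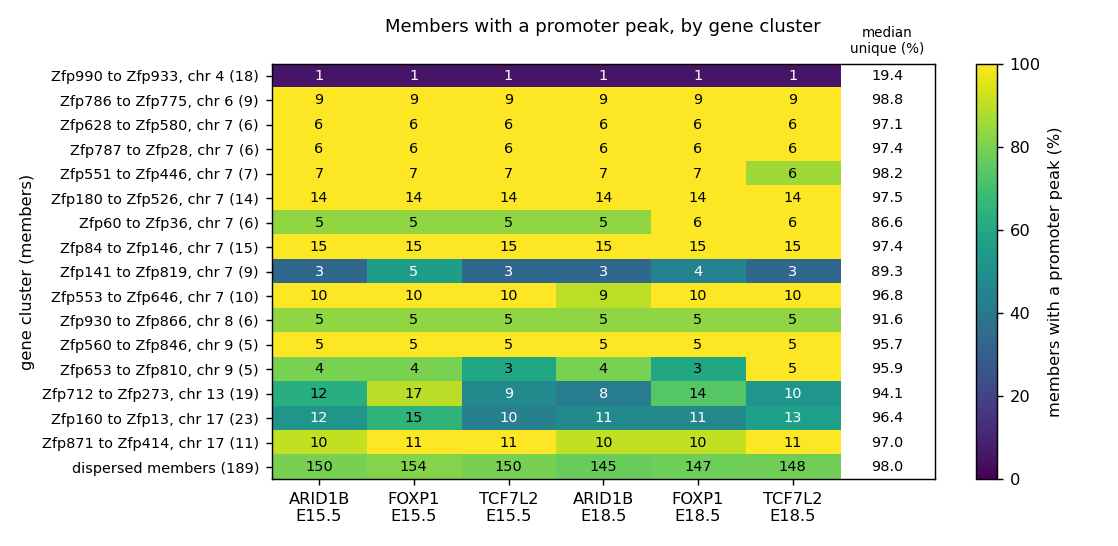
Rows are the 16 clusters of Zfp genes and the dispersed members, with the number of members in parentheses, and columns the 6 lists. Cells give the number of members with a promoter peak, colored by percentage, and the last column the median percentage of 50-base promoter windows that are unique in the genome; the chromosome 4 cluster has 1 bound member of 18.

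The cluster of chromosome 4 (chr4:145510759-147848366, Zfp990 to Zfp933) was the least bound, with 17 of its 18 members without a peak in any list. The exception, Zfp933 at its distal end, had ARID1B peaks of 4.81 (E15.5) and 7.57 (E18.5), FOXP1 peaks of 11.8 and 8.06, and TCF7L2 peaks of 4.73 and 5.25. Its promoter is also the only one there whose 50-base windows are all unique in the genome (100%), where the cluster's median was 19.4% and the next highest were Zfp984 with 77.6% and Zfp985 with 75.2%. A second group of 10 members on chromosome 2 (chr2:175372436-178078476, Zfp968 to Zfp931), spaced too widely to count as a cluster, had no peak in any list, and at most 26.2% of the windows of any of its promoters were unique. Zfp968, Zfp965, Zfp969, Zfp966, Zfp967 and Zfp973 had no unique window at all. Both groups make up 27 of the 66 unbound members. Reads were kept by the authors only with a mapping quality of at least 30, which removes reads that fit several places, so binding could not be measured where no window is unique.

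On chromosome 17, the cluster of 23 members from Zfp160 to Zfp13 (chr17:21008903-23599487) was bound at 10 to 15 members per list, and 8 had no peak. Its members ranged from Zfp213, which had 9.88 for ARID1B and 15.7 for FOXP1 at E15.5, to Zfp983, which had none with 95.9% of its windows unique. On chromosome 13, the 19 members from Zfp712 to Zfp273 (chr13:67038596-67827002), all of them KRAB genes, showed the widest gap between TRs. There FOXP1 was at 17 members at E15.5 and 14 at E18.5, ARID1B at 12 and 8, and TCF7L2 at 9 and 10. Bound members of this cluster had low peaks, with E15.5 medians of 3.44 for ARID1B, 5.19 for FOXP1 and 3.68 for TCF7L2, below those of all bound members. Zfp87, bound in all 6 lists, had 9.75 for FOXP1 at E15.5, and Zfp456 and Zfp429, whose TSS windows are 89.7% identical, had no peak. In the cluster from Zfp141 to Zfp819 on chromosome 7 (chr7:42473386-43618285), 3 to 5 of 9 members were bound per list and 4 had none. Zfp715 led that cluster with 12.3 for FOXP1 at E15.5.

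Of the remaining clusters, most were bound at nearly every member. The cluster from Zfp871 to Zfp414 on chromosome 17 had 10 or 11 of 11 members bound per list, and that from Zfp553 to Zfp646 on chromosome 7 had 9 or 10 of 10. In the cluster from Zfp60 to Zfp36, Zfp60 was bound in all lists with 16.2 for FOXP1 at E15.5, and its close copy Zfp626, 91.7% identical around the TSS, had only FOXP1 (3.94) and TCF7L2 (3.83) peaks at E18.5, with summits more than 2000 bp from its TSS. In the chromosome 8 cluster, Zfp963 had 8.55 for ARID1B and 9.32 for TCF7L2 at E15.5, and Zfp869 had none. In the chromosome 9 cluster from Zfp653 to Zfp810, 3 of 5 members were bound for TCF7L2 at E15.5 and for FOXP1 at E18.5. There Zfp653 was bound in all 6 lists and Zfp872 had only a TCF7L2 peak at E18.5 (3.39).

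**Figure D4:**
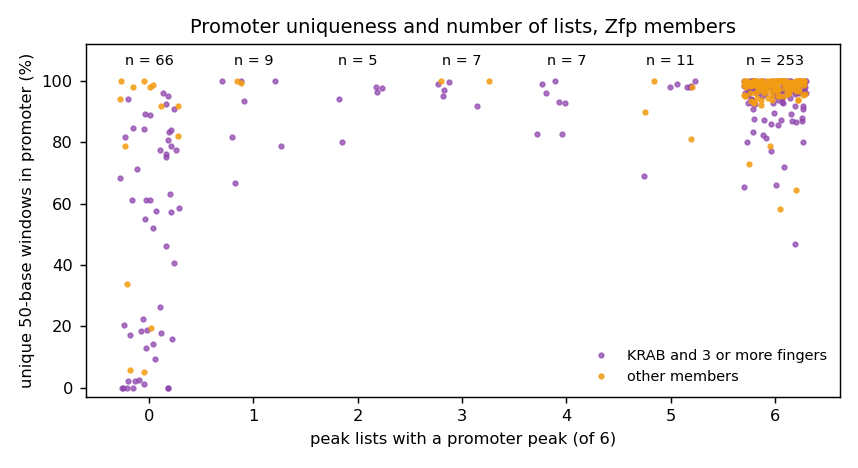
Each point is a Zfp member, placed by the number of lists with a promoter peak and, on the vertical axis, by the percentage of 50-base windows of its promoters that occur once in the genome. Members in 6 lists (253) lie mostly above 90%, and the 66 members in none spread from 0 to 100%.

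How unique a promoter is in the genome moved with whether a peak was listed. Of the 28 members with fewer than 50% unique windows, 27 had no peak in any list, as had 97.3% of the 850 genes of this kind among all genes. The exception was Zfp560, bound in all 6 lists with 46.9% unique windows and 29.4 for FOXP1 at E15.5. Of 59 members with 50 to under 90% unique windows, 26 had no peak and 24 were in all 6 lists. Of the 271 members with at least 90%, 13 had no peak (4.80%, all genes 28.1%) and 228 were in all 6 lists (84.1%, all genes 59.3%). Within this last class 87.1 to 94.5% of members were bound per list, against 62.0 to 69.3% of all genes of the class. The unbound members were also the most alike, with a median identity of 84.8% between their 300-base TSS window and that of the most similar member of the same chromosome, against 51.3% for members in all 6 lists. The mice were of a CD1 background while the reference genome is of another strain, and the part of strain differences in these copies was not tested.

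The 13 unbound members with unique promoters are Zfp648, Zfp831, Zfp683, Zfp541, Zfp42, Zfp735, Zfp750, Zfp429, Zfp366, Zfp957, Zfp983, Zfp820 and Zfp942. Several have known roles outside the cortex. Zfp42 encodes REX1, a marker of embryonic stem cells, Zfp683 encodes HOBIT of tissue-resident lymphocytes, Zfp750 acts in epidermal differentiation, Zfp366 is expressed in dendritic cells, and Zfp541 acts in meiotic germ cells. Their promoter CpG ratio (observed over expected) ranged from 0.0949 (Zfp831) to 0.372 (Zfp42). Zfp831 had peaks within its gene in all 6 lists and Zfp648, Zfp750 and Zfp366 in 3 each. Of the other dispersed members without a promoter peak, Zfp951, Zfp352 and Zfp345 had 83.3, 82.1 and 80.6% unique windows.

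Over all promoters, KRAB genes were bound less often than members with fingers alone. A peak in all 6 lists was found at 126 of 209 members with a KRAB match and 3 or more fingers (60.3%) and at 104 of 116 with fingers only (89.7%). Among promoters with at least 90% unique windows the shares were 78.4% (105 of 134) and 91.7% (100 of 109), and 3.73 and 4.59% had no peak. FOXP1 at E15.5 was there at 95.5% of KRAB members and 94.5% of members with fingers only, while in the other 5 lists the KRAB members were at 82.8 to 88.8% and the others at 91.7 to 94.5%. The heights differed as well. Bound KRAB members with unique promoters had E15.5 medians of 4.46 for ARID1B, 9.11 for FOXP1 and 5.35 for TCF7L2, where members with fingers only had 5.61, 12.5 and 7.02. Of the KRAB members 136 lay in clusters, and of those with fingers only 28, and the part of the clusters in this difference was not tested.

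Of 18 members listed for a known role, 15 were bound in all 6 lists (all genes 53.9%) and 2 in none, a list that leaves out Zfp683, Zfp750, Zfp366 and Zfp541. Among KRAB genes, the imprint guardians Zfp57 and Zfp445 had all 3 TRs at both stages, Zfp57 with 7.47 and Zfp445 with 10.1 for FOXP1 at E15.5. Zfp809, which silences retroviruses in embryonic stem cells, had 9.49 and Zfp568, which represses a placental Igf2 transcript, had 10.8. Zfp143, the factor that binds the ACTACAAT element, had 20.6, and its TCF7L2 peaks were 10.1 and 10.4 at the respective stages. Among genes of neural development, Zfp462 (8.86), Zfp423 (8.10) and Zfp521 (7.97) were in all 6 lists, below the members' median of 10.3 for FOXP1 at E15.5. Zfp292, a gene linked to neurodevelopmental disorders in humans, had 18.1. Zfp503, a regulator of striatal development, had low peaks of 2.68 to 3.94 in 5 lists and none for FOXP1 at E18.5. Zfp488, an oligodendrocyte gene, had no peak with 78.6% unique windows. Zfp365 had 5.95, the Krüppel-type factors Zfp148 and Zfp281 had 12.3 and 15.1, Zfp207, which acts at kinetochores, had 13.8, and Zfp36 had 8.73, all for FOXP1 at E15.5 and all in 6 lists.

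The genes through which KRAB proteins act were bound throughout. Of 20 genes for TRIM28, SETDB1, HP1, the NuRD complex, DNA methylation and the HUSH complex, 20 had a promoter peak in every list, where 53.9% of all genes had one. Trim28 had ARID1B peaks of 7.39 (E15.5) and 7.85 (E18.5), FOXP1 peaks of 17.1 and 12.8, and TCF7L2 peaks of 12.1 and 11.5. Setdb1 had ARID1B peaks of 7.48 and 8.56, FOXP1 peaks of 12.2 and 7.62, and TCF7L2 peaks of 5.56 and 5.25. The Zbtb, Zscan and Zkscan zinc finger genes were nearly all bound. Of these, 36 of 39 Zbtb genes (92.3%) and 20 of 21 Zscan and Zkscan genes (95.2%) were in all 6 lists, against the same 53.9%. Of 94 genes with a KRAB match and 3 or more fingers that carry other names, 23 were in all 6 lists (24.5%) and 56 in none (59.6%), and the median share of unique windows in their promoters was 69.4%. The olfactory receptor genes (Olfr), a tandem family silent in most tissues whose promoters were 96.9% unique in the median, had a peak in any list at 5 of 1087 genes.

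The sequence of the promoters differed between bound and unbound members. The median CpG ratio over the promoter was 0.341 in members of 6 lists, 0.241 in members of 1 to 5 lists and 0.165 in members of none, where all genes of 6 lists had 0.363 and all genes of none 0.159. Windows from 250 bases before to 50 after each TSS were searched for short cores on both strands. The core ACTACAAT or ACTACAAC of ZFP143 and Ronin occurred at 31 members (8.66%, against 4.29% of all genes), of which 27 were in all 6 lists (all genes 660 of 892). The YY1 core AAGATGGC occurred at 33 members (9.22%, against 7.23%), 31 of them in all 6 lists (all genes 1270 of 1504). It was at 0 of the 66 members in none, where only 2.31% of all genes in none had it. NRF1 (GCATGCGC) was at 26 members (7.26%, against 5.34%) and ETS (CCGGAAGT) at 44 (12.3%, against 7.27%). Of these, 24 and 38 were in all 6 lists (all genes 981 of 1112 and 1355 of 1512). The SP and KLF core CCCGCCC was at 41.9% of members and 44.7% of all genes. The cores of the TRs' own families showed no such excess, with the forkhead core TGTTTAC at 7.54% of members and 9.29% of all genes and the TCF and LEF core TCAAAG at 33.5 and 36.6%. The NFY core CCAAT was at 62.3 and 61.9% of members and of all genes. It was at 59.3% of members in 6 lists and 74.2% of those in none, but with at least 90% unique windows the order turned, at 60.1% and 46.2% (6 of 13), as over all genes (68.8 and 52.7%). Set against all genes in 6 lists, members in 6 lists had the ZFP143 and Ronin core at 10.7% (all 5.88%), the ETS core at 38 of 253 (all 1355 of 11219), the YY1 core at 12.3% (all 11.3%), the NRF1 core at 9.49% (all 8.74%) and the SP and KLF core at 46.2% (all 65.5%). Members in more lists have more TSSs (a median of 4.00 in 6 lists and 2.00 in none) and so more windows searched, and short cores fall by chance in many windows, so these shares are a description of letters and not of sites.

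Inside the genes, peaks away from promoters were scarcer at members than at all genes. A peak that overlapped the gene and no promoter of any gene was found at 56 (ARID1B), 52 (FOXP1) and 42 (TCF7L2) members at E15.5 (15.6, 14.5 and 11.7%), where 30.6, 31.4 and 19.6% of all genes had one. At E18.5 the counts were 61, 29 and 63 (17.0, 8.10 and 17.6%), against 30.3, 15.6 and 28.2% of all genes. Median gene lengths were 17400 bp for members and 17600 bp for all genes, but mean lengths were 30.2 and 49.3 kb, so that all genes offered more sequence per gene. Per Mb of gene, members had 22.0 ARID1B peaks at E18.5 against 25.3 in all genes, and 20.2 TCF7L2 peaks at E18.5 against 18.2, so fewer members held such peaks although the densities were close. Of the 100 members with such a peak in any list, 7 had no promoter peak in any list.

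The last exon of a typical Zfp gene encodes the whole finger array and is long, with a median of 2740 bp against 1460 bp for all genes. A peak there, outside all promoters, was found at E15.5 at 12 members for ARID1B, 12 for FOXP1 and 8 for TCF7L2 (3.36, 3.36 and 2.24%, against 5.90, 6.81 and 3.77% of all genes) and at 10, 3 and 19 at E18.5 (2.80, 0.840 and 5.32%, against 5.57, 2.19 and 6.42%). Per Mb of last exon, members had 14.8 FOXP1 peaks at E15.5 and 2.62 at E18.5, where all genes had 39.2 and 10.6, and members were lower in each of the other lists too. For their length, the members' last exons thus held fewer peaks than those of all genes. The last exons of 35 members had fewer than 50% unique windows, and the part of this in the difference was not tested. At E15.5 summits lay in the coding part in 8 of 14 ARID1B, 8 of 17 FOXP1 and 10 of 12 TCF7L2 peaks. At E18.5 they did in 10 of 13 ARID1B, 3 of 3 FOXP1 and 15 of 24 TCF7L2 peaks. The 26 members with a last exon peak in any list had a median CpG ratio of 0.529 in that exon, against 0.258 in the 331 without, and 3 of the 26 but 211 of the 331 had a KRAB match. Of the 26, 8 lay in clusters, as did 169 of all 358 members.

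The highest last exon peaks belonged to Zfp771 (ENSMUSG00000054716.4), a gene with 8 fingers and no KRAB match (chr7:127244274-127254803, plus strand). Its last exon had ARID1B peaks of 10.4 (E15.5) and 10.9 (E18.5), FOXP1 peaks of 20.9 and 15.3, and TCF7L2 peaks of 14.6 and 16.6. In each list that peak was higher than the gene's own promoter peak, which had 4.81 and 5.89 for ARID1B, 11.3 and 8.36 for FOXP1, and 7.34 and 8.76 for TCF7L2. All 6 summits fell in coding sequence of the exon (chr7:127253805-127254803), whose CpG ratio was 1.14, and none of the 6 peaks touched a promoter of any gene. The 150 bases around the FOXP1 summit of E15.5 (chr7:127254211-127254360, plus strand, GRCm38), all coding, hold 28 CpGs, shown in capitals.
Zfp771: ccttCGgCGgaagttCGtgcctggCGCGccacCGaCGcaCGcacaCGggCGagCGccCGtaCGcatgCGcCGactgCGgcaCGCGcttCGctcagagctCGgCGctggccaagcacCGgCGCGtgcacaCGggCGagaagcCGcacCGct

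**Figure D5:**
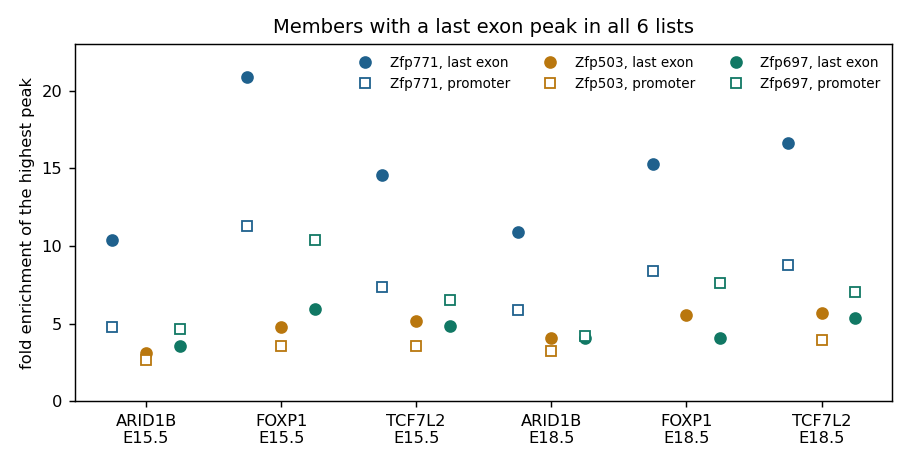
Fold enrichment of the highest last exon peak (filled circles) and promoter peak (open squares) in each list for the 3 members with a last exon peak in all 6 lists. Zfp771 has last exon peaks of 10.4 to 20.9, above its promoter in every list; Zfp503 has no FOXP1 promoter peak at E18.5.

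Only Zfp697 and Zfp503 also had last exon peaks in all 6 lists. Those of Zfp697 were 3.57 to 5.95 and lay below its promoter peaks in each list. Those of Zfp503 were 3.13 to 5.69, above its low promoter peaks where both were present, though the summit of the 5.69 peak (TCF7L2, E18.5) lay outside the exon. Zfp609, a gene with a single finger that acts in cortical neurons, had ARID1B peaks in its last exon of 5.44 (E15.5) and 5.05 (E18.5), with both summits in the non-coding part. Zfp423 had 4.63 for ARID1B at E18.5 and 4.94 for FOXP1 at E15.5, with summits beyond the exon. The other members' last exon peaks were at or below 4.05.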

How the data were processed

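In ChIP-seq of mouse cortex the authors assayed ARID1B, FOXP1 and TCF7L2 at both stages (E15.5 and E18.5), with 2 ChIP and 2 input libraries of each (24 in all, single-end 50-base reads). Per the methods of the study and its processing notes, the authors aligned reads to GRCm38 with BWA 0.7.15, kept those with a mapping quality of at least 30 with SAMtools, merged replicates, and called the peaks of these lists against input with MACS2 2.2.7 (q 0.01, reads extended to 200 bases, no local lambda). Neither the methods nor the labels state whether duplicates were removed. The deposited lists hold, per peak, the fold enrichment at the summit (a ratio of reads to background), −log10 p, −log10 q and a score derived from −log10 q by the authors' peak caller. Fold enrichment and −log10 p were used here, as well as peak and summit positions.

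Promoters, gene bodies and last exons were taken from GENCODE vM21 on chromosomes 1 to 19. A peak was assigned by at least 1 shared base, and body and last exon peaks had to touch no promoter of any gene. Last exons were those of protein-coding transcripts with at least 2 exons. Uniqueness was the share of 50-base windows, every 20 bases, that occur once in GRCm38 by exact match on either strand. Identity was that of the 300 bases from 250 before to 50 after the TSS, by edit distance. C2H2 fingers and KRAB boxes (2 mismatches allowed at 11 fixed positions) were searched in translated GENCODE coding sequences in place of RefSeq proteins, which were not used here. RefSeq promoters matched 296 of 358 members. Shares carry 95% Wilson intervals. Scripts ran in Python 3.11.15 with NumPy 2.4.6, SciPy 1.17.1 and numba 0.67.0, and were tested on simulated data.

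With 1 list per TR and stage, no test was run. Members named are the 3 highest per list, the 5 with the highest minimum over 6 lists, the dispersed members without a peak (12 with the most unique promoters), members of 1 TR only, the most and least bound of each cluster, the 3 highest last exon peaks per list and a list of members with known roles. Others are named where a count needed them, after their values were seen. The members and all lists were chosen with earlier results of these data known. Part of the check of tissue genes is not reported here.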

Additional observations from a re-analysis of the deposited data

How the results depend on the processing

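No paired analysis was possible because each list used here was called on merged replicates, and no replicate could be left out for the same reason. Of 342 values recomputed, 260 stayed near the reported value (counts within 1.5 times, median fold enrichments within the members' quartiles, differences of shares within the margin of the member share's Wilson interval), 81 moved by more and 1 reversed. The cause was not tested. The reversal is the ARID1B share at E18.5 among the 20000 peaks of lowest p-value, whose difference from all genes was -2.30 points. The difference between members and all genes, added after seeing the data, kept its direction in the other 41 of 42 comparisons, of which 17 moved beyond that margin, down to 0.213 points (ARID1B at E15.5, 20000 peaks) and up to 27.6 (FOXP1 at E18.5, unique promoters). Values are given for ARID1B, FOXP1 and TCF7L2 in that order unless named.

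With the 20000 strongest peaks per list, ARID1B promoter peaks numbered 128 and 119 at E15.5 and E18.5 (clusters 50 and 43, dispersed 78 and 76), all 3 TRs met at 128 and 117 members, and ARID1B was at 100 members at both stages, 28 at E15.5 only and 19 at E18.5 only. FOXP1 was then at 4 at E15.5 only and 14 at E18.5 only. Body peaks were at 21, 17 and 24 members at the earlier stage and 24, 19 and 22 at the later, and last exon peaks at 2, 2 and 3 at the earlier and at 1 (ARID1B) and 3 (TCF7L2) at the later.

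With −log10 p of at least 15, ARID1B peaks numbered 158 at E18.5 (clusters 74 at E15.5 and 54 at E18.5), clustered TCF7L2 peaks 78 at E15.5, and all 3 TRs met at 147 members at E18.5. ARID1B was at 145 at both stages, 46 at E15.5 only and 13 at E18.5 only, FOXP1 at 70 and 0 at single stages, and TCF7L2 at 33 at E18.5 only. Body peaks were at 31, 24 and 7 at the earlier stage and 28, 7 and 16 at the later, and last exon peaks at 2, 4 and 2 and at 2, 1 and 3.

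With the summit inside the promoter, all 3 TRs met at 149 and 140 members, and TCF7L2 was at 77 clustered members at E18.5. ARID1B was then at 170 at both stages, 29 at E15.5 only and 23 at E18.5 only, FOXP1 at 181, 37 and 20, and TCF7L2 at 156, 37 and 27. With 500 bp on either side of the TSS, ARID1B and FOXP1 were at 0 at E18.5 only, as was FOXP1 with 1000 bp promoters and with unique promoters only. Members without a peak fell from 66 to 13 among unique promoters. A cluster gap of 250 kb gave 17 clusters of 149 members, and 1000 kb gave 18 of 192.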
